A study of Mus musculus musculus x M. m. domesticus and Mus musculus domesticus and Mus musculus with 12 samples.

Results

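*Dnmt3a*, *Dnmt3l*, *Dnmt1* and *Uhrf1* encode the core proteins that place and keep methyl groups on cytosines of DNA in the mouse germline. They were chosen by their Ensembl gene identifiers, to ask whether the lower *Dnmt3a* expression of sterile hybrid males is shared by the other methylation genes. Of these 4 identifiers, 2 had a row among the 7000 genes, *Dnmt3a* (ENSMUSG00000020661_at) and *Dnmt1* (ENSMUSG00000004099_at). *Dnmt3l* (ENSMUSG00000000730_at) and *Uhrf1* (ENSMUSG00000001228_at) were not analysed here.

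The samples were 12 whole testes, each from a different male of 60 days, with 3 males per genotype and 1 Affymetrix mouse expression array per male. The maternal strain is written first. *DxD* males (LEWES/EiJ x WSB/EiJ) and *MxM* males (PWK/PhJ x CZECHII/EiJ) were fertile crosses within *Mus domesticus* and within *M. musculus*. Of the reciprocal hybrids, *DxM* males (LEWES/EiJ x PWK/PhJ) were fertile and *MxD* males (PWK/PhJ x LEWES/EiJ) were sterile. Both hybrids carry the same pair of autosomal parental genomes and differ in the origin of the X, the Y and the mitochondria. They also differ in the mother's strain and in which parent gave each autosomal copy. The *DxD* and *MxM* males were not the parents of the hybrids. The labels do not say whether males of a genotype were littermates, so that p-values measure the spread between these males. The array was designed on laboratory mouse sequence, which is mostly of *M. domesticus* origin. The part of probe mismatches in differences between genotypes was not tested.

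DNA methylation is laid down by de novo enzymes and then copied at each cell division. DNMT3A is a de novo methyltransferase, and its cofactor DNMT3L has no catalytic activity of its own. Together they set the methylation pattern of male germ cells before birth. DNMT1 is the maintenance enzyme, which restores methylation on the new strand after replication, and UHRF1 brings it to hemimethylated DNA. In the adult testis both enzymes are best known from the mitotic spermatogonia and early spermatocytes.

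All values are on the log2 scale and were quantile normalized, with the same median of 8.14 in each array. Sterile and fertile genotypes were compared with limma over all 7000 genes, with Benjamini-Hochberg adjustment at 5%. *MxM* replicate 3 stood apart from the other males. In 131 genes its value was lower than in all remaining males by 1 log2 unit or more, against 0 to 4 such genes for any other male. Values without it are given where they move a *Dnmt1* result by over 1.5 times or change a call. *Dnmt3a* is among the genes the study singled out on these same males, so its difference in *MxD* is not independent evidence. It was listed there as a mitotic gene of lower expression in the sterile males, which fixed the direction of its *MxD* differences. In whole testis, fewer cells of a type and less RNA per cell cannot be told apart.

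*Dnmt3a*, on chromosome 12 (start 3806980, NCBI build 37), was lower in all 3 sterile males than in any fertile male. The *DxD* males had log2 values of 5.36, 5.32 and 5.35 and the *MxM* males 5.40, 5.30 and 5.32. The *DxM* males had 5.26, 5.26 and 5.22, and the *MxD* males 5.08, 4.96 and 5.06. The within-species crosses were thus the highest and overlapped each other, *DxM* lay just below them on these values, and *MxD* was the lowest with no overlap with any fertile genotype. Such complete separation below the fertile males held for 5.57% of all genes. The order of means was *DxD* at 5.34 ± 0.02, *MxM* at 5.34 ± 0.05, *DxM* at 5.24 ± 0.02 and *MxD* at 5.03 ± 0.07 (SD, n = 3 each). *Dnmt3a* is a dim gene on this array, with only 103 of 7000 genes lower in mean signal, and the size of a change is less certain at such low signal.

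Relative to the mean of the fertile genotypes, *Dnmt3a* in *MxD* fell by 0.27 ± 0.05 (SE) on the log2 scale, which on the linear scale fell by 17.3%. The limma adjusted p was 0.0030, and 12.8% of genes were lower in *MxD* by this test. The exact two-sided permutation test of the 3 sterile against the 9 fertile males gave p = 0.0091, the smallest that the 220 choices of males can give. *Dnmt3a* was lower in *MxD* than in *DxD* by a difference of -0.31 (limma adjusted p = 0.0032), where 15.1% of genes were lower. Against *MxM* the difference was -0.30 (limma adjusted p = 0.0038), and 17.3% of genes were lower. The call against *MxM* was lost when limma was run on that pair of genotypes alone (adjusted p = 0.0572), and under cyclic loess the difference was -0.19 (limma adjusted p = 0.0498). With that scaling *MxM* replicate 3 was at 5.115 and the highest *MxD* male, replicate 1, at 5.108. With Benjamini-Hochberg adjustment, the methods' t-test for unequal variances lost both calls (adjusted p = 0.0683 against *DxD* and 0.103 against *MxM*). The study set its threshold on unadjusted p-values, and by that rule it reported *Dnmt3a* as lower in *MxD* than in every fertile genotype.

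The reciprocal hybrids form the closest comparison, since their autosomes come from the same strains. Here the log2 difference of *Dnmt3a*, *MxD* minus *DxM*, was -0.21 (95% interval -0.34 to -0.08), and it missed the threshold with a limma adjusted p of 0.0655. Only 3.50% of genes were lower in *MxD* by this test. Same-numbered males of *MxD* and the fertile genotypes deviated together, and blocking on that number gave a limma adjusted p of 0.0216. With this block 1201 of 7000 genes were called between these hybrids in either direction, against 455 without it. Groups without overlap were found in either direction for 26.4% of genes between *MxD* and *DxM*, for 50.5% between *MxD* and *DxD* and for 37.9% between *MxD* and *MxM*, and 3 against 3 males cannot give an exact permutation p below 0.10.

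**Figure D1:**
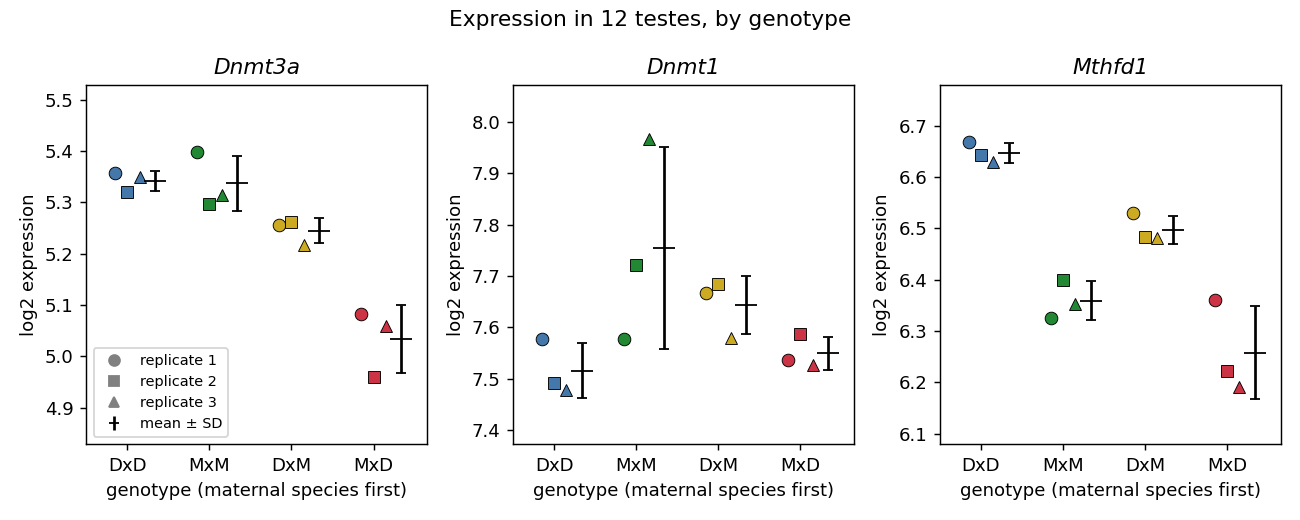
Log2 expression of *Dnmt3a*, *Dnmt1* and *Mthfd1* (vertical axes, each spanning the same range) in each male by genotype, with symbols for the replicate number and black bars for the mean ± SD of 3 males. The *MxD* males are below all others for *Dnmt3a* and lie within the fertile range for *Dnmt1*, where *MxM* replicate 3 is the highest at 7.97.

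*Dnmt1* did not share this pattern of values. The *DxD* males had log2 values of 7.58, 7.49 and 7.48, and the *MxM* males 7.58, 7.72 and 7.97. The *DxM* males had 7.67, 7.68 and 7.58, and the *MxD* males 7.54, 7.59 and 7.53. The 3 sterile males fell inside the fertile range, above 2 of the *DxD* males and below most *MxM* and *DxM* males. Paired by replicate number, *MxD* was lower than *DxM* by differences of -0.13, -0.10 and -0.05 and than *MxM* by -0.04, -0.13 and -0.44. Against *DxD* the paired differences went both ways, at -0.04, 0.10 and 0.05. With the number as a block none of these comparisons passed (limma adjusted p = 0.521 against *DxM*, 0.0936 against *MxM* and 0.784 against *DxD*). The widest spread was within *MxM*. In order, the means were 7.75 ± 0.20 in *MxM*, 7.64 ± 0.06 in *DxM*, 7.55 ± 0.03 in *MxD* and 7.52 ± 0.05 in *DxD* (SD, n = 3 each), and no pair of neighbours in this order passed the limma test.

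*Dnmt1* in *MxD* was -0.09 ± 0.07 (SE) from the mean of the fertile genotypes, with a limma adjusted p of 0.422 and an exact permutation p of 0.345. Without *MxM* replicate 3 it was -0.05 (limma adjusted p = 0.495). The 95% interval with all males, from -0.25 to 0.07, allows a decrease of nearly the size seen in *Dnmt3a* as well as a small increase. The difference from *DxM* was -0.09 (interval -0.29 to 0.10, limma adjusted p = 0.619) and that from *DxD* was 0.03 (interval -0.16 to 0.23, limma adjusted p = 0.808). Against *MxM* it was -0.21, with a limma adjusted p of 0.110. That last value depended on single *MxM* males, at -0.10 (limma adjusted p = 0.331) without replicate 3 and -0.29 (limma adjusted p = 0.0243) without replicate 1. Of all genes, 23.8% were called in either direction against the fertile mean, 6.50% against *DxM*, 31.0% against *DxD* and 30.3% against *MxM*.

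**Figure D2:**
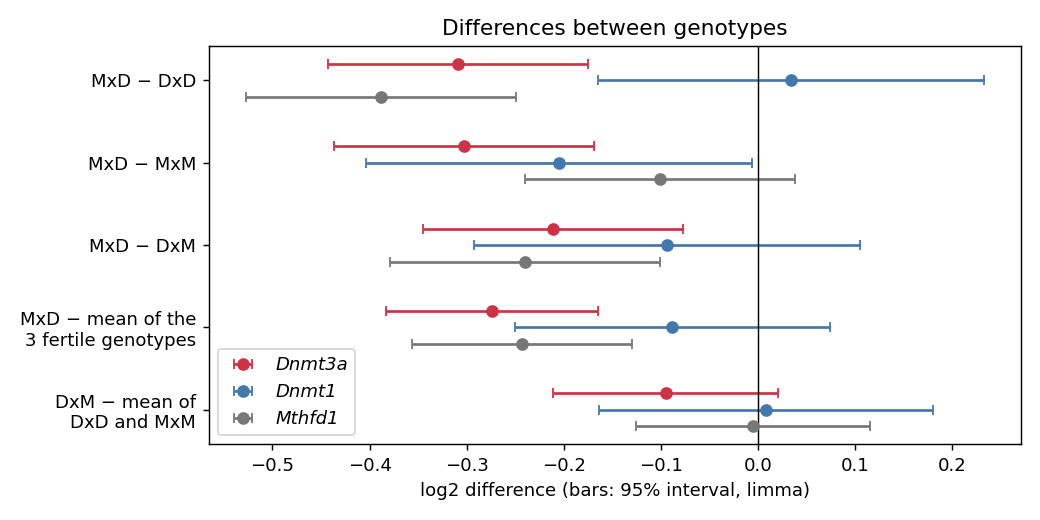
Log2 differences between genotypes (horizontal axis) for *Dnmt3a*, *Dnmt1* and *Mthfd1*, as points with 95% limma intervals. The *Dnmt3a* intervals of all 4 *MxD* comparisons lie below 0 before adjustment, and those of *Dnmt1* include 0 except against *MxM*.

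Whether the *MxD* difference of *Dnmt3a* exceeded that of *Dnmt1* was tested directly on the log2 difference between both genes within each male. A fall of this value means that *Dnmt3a* went down relative to *Dnmt1*, and its level has no meaning because different probe sets are not comparable. The study picked *Dnmt3a*, and not *Dnmt1*, as low in these *MxD* males. That choice favoured such a fall, so the test is not independent evidence. The *DxD* males had differences of -2.22, -2.17 and -2.13 and the *MxM* males -2.18, -2.42 and -2.65. The *DxM* males had -2.41, -2.42 and -2.36 and the *MxD* males -2.45, -2.63 and -2.47. The lowest value belonged to *MxM* replicate 3, so the sterile males overlapped *MxM* but neither *DxD* nor *DxM*.

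The mean in *MxD* was -0.19 from the mean of the 9 fertile males, with an exact two-sided permutation p of 0.0727. With the *MxD* label moved only within replicate numbers, the exact permutation p was 0.094. The lower *Dnmt3a* of *MxD* was therefore not shown to differ from the *Dnmt1* change at the 5% level. Without *MxM* replicate 3 the same difference was -0.23 with an exact permutation p of 0.0121, and without *MxD* replicate 2 it was -0.13 with an exact permutation p of 0.255. By single fertile genotype the difference was -0.34 against *DxD* and -0.12 against *DxM*, each with an exact permutation p of 0.10, the smallest possible with 3 males a side. Against *MxM* alone it was -0.10 with an exact permutation p of 0.50, and under cyclic loess the difference from all fertile males was -0.14 with an exact permutation p of 0.236.

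**Figure D3:**
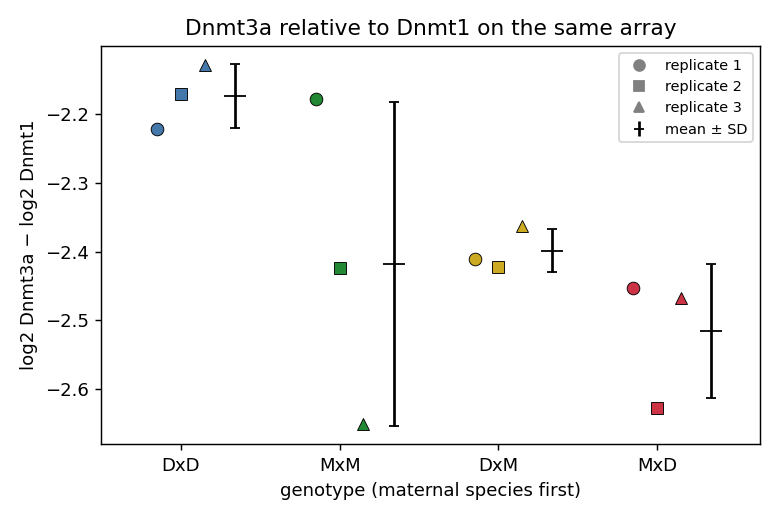
Log2 *Dnmt3a* minus log2 *Dnmt1* on the same array (vertical axis) in each male by genotype, with symbols for the replicate number and black bars for the mean ± SD of 3 males. The *MxD* males lie below all *DxD* and *DxM* males, and *MxM* replicate 3 is the lowest of all at -2.65.

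Among the fertile genotypes neither methylation gene passed the limma test, so that neighbours in the *Dnmt3a* order of means were not shown to differ. *Dnmt3a* was 0.01 higher in *DxD* than in *MxM* (limma adjusted p = 0.954), a comparison in which 31.9% of genes were called. *DxM* was -0.10 from *DxD* (limma adjusted p = 0.363, 12.1% of genes called) and -0.09 from *MxM* (limma adjusted p = 0.348, 16.9% called), the latter turning to 0.041 under cyclic loess. For *Dnmt1* the largest fertile difference was -0.24 between *DxD* and *MxM*, with a limma adjusted p of 0.0653. It was -0.13 (limma adjusted p = 0.208) without *MxM* replicate 3 and -0.33 (limma adjusted p = 0.0123) without *MxM* replicate 1.

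The hybrids were also set against the mean of *DxD* and *MxM*. *Dnmt3a* was -0.31 from this mean in *MxD* (limma adjusted p = 0.0019), where 28.2% of genes were called in either direction. In *DxM* it was -0.09 from it (limma adjusted p = 0.381, 4.64% of genes called), and 6.3e-04 under cyclic loess. *Dnmt1* was -0.09 from the same mean in *MxD* (limma adjusted p = 0.456) and 0.01 in *DxM* (limma adjusted p = 0.973). Omitting *MxM* replicate 3 gave -0.033 in *MxD* (limma adjusted p = 0.700) and 0.061 in *DxM*. Omitting *MxM* replicate 1 gave -0.13 in *MxD* (limma adjusted p = 0.178) and -0.036 in *DxM*.

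The species of mother and father were also crossed in an interaction, the difference between *MxD* and *DxD* minus that between *MxM* and *DxM*. Within each father's species the father's strain changes as well, so that the mother's species and the father's strain cannot be told apart. For *Dnmt3a* the first difference was -0.31, a direction fixed by the study's choice of this gene on these males. In the second, *MxM* was 0.09 higher. The interaction was -0.40 ± 0.09 (SE, limma adjusted p = 0.0079), while 21.2% of all genes had an interaction past the threshold. Under cyclic loess it was -0.23 and missed the threshold (limma adjusted p = 0.106), and *DxM* was then the higher of *DxM* and *MxM*, by 0.041. For *Dnmt1* the interaction was -0.08 ± 0.13 (SE, limma adjusted p = 0.709). Omitting *MxM* replicate 3 turned it to 0.028, and omitting *MxM* replicate 1 gave -0.17.

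DNA methylation draws its methyl groups from the folate and methionine cycles. *Mthfd1* encodes the cytosolic enzyme that interconverts folate-bound carbon units, and it too lies on chromosome 12 (start 77356395, NCBI build 37). It was the only one of 22 genes listed for the methyl donor cycle that could be matched by name. The study had also listed it as a mitotic gene of lower expression in the sterile males. The direction of its *MxD* differences was fixed by that choice. None of the 25 listed writers and partners, 10 methylation readers or 12 genes of methyl removal could be matched by name, and they were not analysed here. 

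*Mthfd1* had log2 values of 6.67, 6.64 and 6.63 in *DxD*, 6.32, 6.40 and 6.35 in *MxM*, 6.53, 6.48 and 6.48 in *DxM*, and 6.36, 6.22 and 6.19 in *MxD*. Unlike *Dnmt3a*, it also differed between the within-species crosses, where *DxD* was higher by 0.29 (limma adjusted p = 0.0050), and *DxM* lay between them. The sterile males were below all *DxD* and *DxM* males and overlapped *MxM*. *Mthfd1* was lower in *MxD* than in *DxD* by a difference of -0.39 (limma adjusted p = 0.0011) and than in *DxM* by one of -0.24 (limma adjusted p = 0.0468). The latter call was lost in 13 of 20 alternatives. Against *MxM* the difference was -0.10 (limma adjusted p = 0.252).

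The study's annotation places *Dnmt3a* and *Mthfd1* among genes expressed in mitotic germ cells, and gives classes for further autosomal genes. In the rows used here, from chromosomes 1 to 5, 363 other genes were of the mitotic class. The study's listed genes were left out of every class, among them mitotic genes picked as lower in these sterile males. That can only lower the mitotic counts below of genes as low as *Dnmt3a* or *Dnmt1*. Their median difference between *MxD* and the mean of the fertile genotypes was 0.21, against the *Dnmt3a* difference of -0.27. As the study picked *Dnmt3a* and *Mthfd1* from this class for lower expression in these males, their low place in it was fixed by that choice and is a description. Of these 363 genes 43 were below 0 and 1 (0.275%) was as low as *Dnmt3a*, while 19 (5.23%) were as low as *Dnmt1*. The class of *Dnmt1* is not given in the sources used here. As low as *Dnmt1* were also 43.8% of meiotic, 76.5% of postmeiotic and 22.5% of somatic genes, while 33.8% of all genes were lower. Between the hybrids the median mitotic difference was 0.16, and 5 of the 363 genes were as low as *Dnmt3a*.

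**Figure D4:**
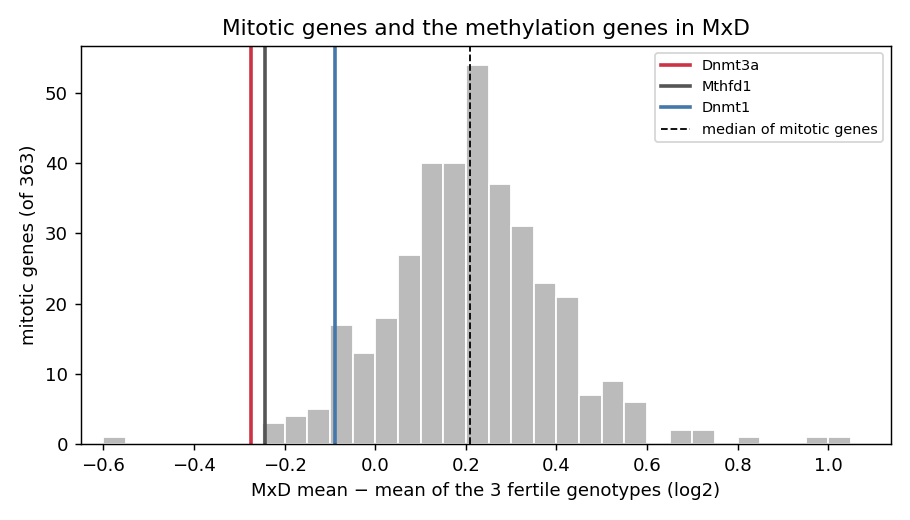
Distribution of the difference in log2 expression between *MxD* and the mean of the 3 fertile genotypes (horizontal axis) over 363 genes of the mitotic class (vertical axis, number of genes), with lines for *Dnmt3a*, *Mthfd1*, *Dnmt1* and the class median. *Dnmt3a* at -0.27 and *Mthfd1* at -0.24 lie in the lower tail, where their selection by the study placed them, while the median is 0.21. Genes on the study's list are left out of the 363.

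The other classes moved with the sterile genotype as well. The median difference from the fertile genotypes was -0.06 for 324 meiotic genes, -0.23 for 268 postmeiotic genes and 0.11 for 142 somatic genes. *Dnmt3a* lay somewhat below the median of the postmeiotic class, of which 38.1% were as low or lower. Per male, the median deviation of the mitotic class, from the median of each gene over the 12 males, ran from 0.11 to 0.23 in *MxD* and from -0.13 to 0.06 in the fertile males. That of the postmeiotic class ran from -0.21 to -0.11 in *MxD* and from 0.01 to 0.10 in the fertile males. The part of these class shifts in the *Dnmt3a* result was not tested.

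Of 9 listed Leydig cell markers 1 could be matched, *Cyp17a1*, a steroidogenic enzyme. The study had listed it as a postmeiotic gene of higher expression in these sterile males, which fixed the direction of its *MxD* differences. Its mean log2 value was 11.2 ± 0.06 in the sterile males. In the fertile crosses it was 10.6 ± 0.14 for *DxM*, 10.1 ± 0.41 for *DxD* and 9.97 ± 0.63 for *MxM* (SD, n = 3 each). The part of Leydig cells in the methylation gene values was not tested. No listed marker of spermatogonia, spermatocytes, spermatids, Sertoli cells or macrophages could be matched by name.

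The 32 X-linked genes that the study listed were high in the same males that were low in *Dnmt3a*. Their mean deviation from the median male was 0.51, 0.56 and 0.56 in *MxD* and ranged from -0.25 to 0.22 in the fertile males. Those genes were chosen on these males, which fixes the direction. *MxD* replicate 2, with the lowest *Dnmt3a*, had an X-linked deviation of 0.561, against 0.556 in replicate 3 and 0.508 in replicate 1. A relation between these values among the *MxD* males was not tested.

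The genes most like *Dnmt3a* over the 12 males were ranked by Pearson's correlation among the other 6999 genes, as a description, since the genotypes form clusters. ENSMUSG00000002820 came first with r = 0.95 and ENSMUSG00000076433 next with r = 0.94, and the values used here do not pair these identifiers with symbols. Of named genes, *Brwd1*, which encodes a bromodomain protein, was at rank 64, *Mthfd1* at rank 630 and *Dnmt1* at rank 2612. The study picked *Brwd1* and *Mthfd1*, but not *Dnmt1*, as lower in these sterile males, which favours a high rank. The genes most like *Dnmt1* were ENSMUSG00000025521 with r = 0.92 and ENSMUSG00000025949 with r = 0.91, both with their highest mean in *MxM*. Pooled over genotypes, the deviations of *Dnmt3a* and *Dnmt1* from their genotype means had a correlation of -0.37 over the 12 males. The genotypes were not alike in this, as the order of the *DxM* males was the same for both genes. In *MxM*, where *Dnmt1* spread most (SD 0.20), the male highest in *Dnmt3a* was lowest in *Dnmt1*. In *MxD* the male lowest in *Dnmt3a* was highest in *Dnmt1*.

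**Figure D5:**
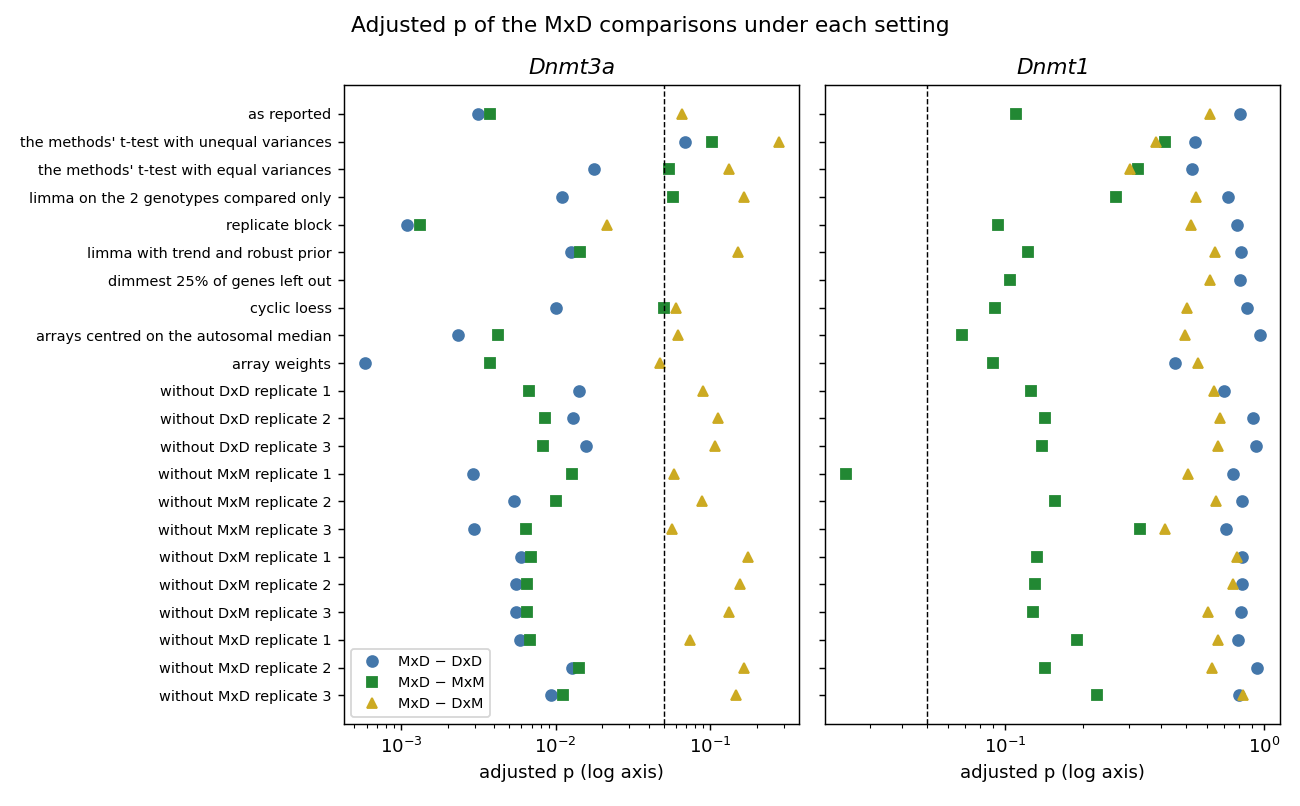
Adjusted p (horizontal log axis, dashed line at the 5% threshold) of *Dnmt3a* and *Dnmt1* in the 3 *MxD* comparisons under each alternative setting (vertical axis). *Dnmt3a* against *DxD* and *MxM* lies mostly left of the line, *Dnmt3a* against *DxM* lies right of it in 18 of 20 alternatives, and *Dnmt1* passes once, against *MxM* without *MxM* replicate 1.

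Over the alternatives the difference of *Dnmt3a* from the mean of the fertile genotypes passed the limma threshold in 17 of 17. Its difference from *DxM* kept its sign in all 20, with adjusted p values from 0.0216 to 0.276. *Dnmt1* against *DxM* also kept its sign, in all 21 alternatives, with adjusted p values from 0.304 to 0.832.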

How the data were processed

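Whole testis RNA of 12 males was hybridised to 1 array each. In the study's methods, PLIER with BRAINARRAY files (version 11) gave 1 value per Ensembl gene, genes not detected in every male were dropped, and arrays were quantile normalized. The authors deposited log2 values, which were used unchanged. No read depth exists for arrays, so that precision rests on their number.

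Values were fitted with limma 3.58.1 (R 4.3.3), giving each genotype 1 coefficient over all 12 males. Tests were two-sided and adjusted over 7000 genes at 5%. Exact permutation tests over males used scipy 1.17.1. They moved labels freely across replicate numbers, except where a move within the numbers is stated. *Dnmt3a* and *Dnmt1* formed the only pair of members compared, so this test needed no adjustment. Figures were drawn with matplotlib 3.10.9. The procedure was tested on simulated data.

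The members and lists were chosen with earlier results of these data known. Named genes were the members, listed methylation genes that could be matched by name, and for each member the genes of highest correlation, of which 2 are printed. The deposited values pair identifiers with no symbols. Symbols came from the 4 member identifiers and the study's list of sterility-related genes, and the other listed genes were not analysed here. Cell classes and positions were those of the study's supplementary annotation, of which only part was used.

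As alternatives, t-tests with unequal or equal variances were run, the latter being the Student's t-test that the methods name. Also run were limma on only the 2 genotypes compared, a block for the replicate number, limma with trended robust priors and omission of the dimmest 25% of genes. The rest were cyclic loess, autosomal median centring, array weights and omission of each male in turn. The t-tests were adjusted here over all genes. The study compared sterile and fertile males at a threshold on unadjusted p-values, with false discovery rates estimated by permutation.

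To check pairing by replicate number, deviations from the genotype mean were correlated across genes between males of the same number. Between *MxD* and each fertile genotype all correlations were 0.151 to 0.756, so the numbers count as pairing these males. The pairing comes from these values alone. Over all genotypes the lowest was -0.0511.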

Additional observations from a re-analysis of the deposited data

Results flagged for a closer look

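The *Dnmt3a* difference between *MxD* and *DxD* differed from that between *MxM* and *DxM*, by a limma interaction of -0.40 (95% interval -0.59 to -0.21, adjusted p = 0.0079). The contrast crosses the species of mother and father, and the father's strain changes within each father's species, so that the mother's species and the father's strain cannot be told apart. As the study chose *Dnmt3a* for lower values in these *MxD* males, the interaction is not independent evidence. Of all genes 21.2% passed this interaction test, and under cyclic loess the *Dnmt3a* interaction was -0.23 with a limma adjusted p of 0.106.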

How the results depend on the processing

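Of 463 alternative values for 24 results, 425 kept both direction and side of the threshold. *Dnmt3a* in *MxD* lost its call against *DxD* only in the t-test that allows unequal variances (-0.31, adjusted p = 0.0683). Against *MxM* it lost it at an unchanged -0.30 under that test (adjusted p = 0.103), with equal variances (0.0539) and under limma on both genotypes alone (0.0572), and it was -0.19 (0.0498) under cyclic loess. Against *DxM* it gained a call at -0.21 with the replicate block (limma adjusted p = 0.0216) and with array weights (-0.21, limma adjusted p = 0.0472). The block changed no other call of *Dnmt3a* or *Dnmt1*, but raised the *MxD* and *DxM* genes called from 455 to 1201. With the same Benjamini-Hochberg adjustment, that count was 9 under Student's t-test with equal variances and 0 under the t-test with unequal variances. The study set its threshold on unadjusted p-values, estimated the false discovery rate by permutation, and called more genes between these hybrids. For its sterility-related genes it also required a difference from a within-species cross. With a male left out of the limma fit, the count ran from 172 to 667. The *Dnmt3a* interaction fell below the threshold under cyclic loess (-0.23, limma adjusted p = 0.106).

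*Dnmt1* between *DxD* and *MxM* passed with array weights (-0.23, limma adjusted p = 0.0036). With each male left out in turn, that difference ran from -0.33 to -0.13, *Dnmt1* between *MxD* and *MxM* from -0.29 to -0.10, and *Dnmt3a* relative to *Dnmt1* from -0.23 to -0.13. Signs turned in differences that had not passed the threshold. They were *Dnmt1* in *MxD* against *DxD* with autosomal centring (-0.0062), *Dnmt3a* in *DxM* against *MxM* under cyclic loess (0.041), and *Dnmt3a* in *DxM* against the mean of *DxD* and *MxM* under cyclic loess (6.3e-04). *Dnmt1* in *DxM* against that mean turned with autosomal centring (-0.0019). With a male left out, it ran from -0.036 to 0.061, *Dnmt3a* in *DxD* against *MxM* from -0.014 to 0.037, and the *Dnmt1* interaction from -0.17 to 0.028. The cause of these changes was not tested. Removal of the dimmest genes left out *Dnmt3a* and *Mthfd1*, and contrasts over more than a pair of genotypes have no value under the pairwise tests.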
